A study of Mus musculus with 24 samples.

Results

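The genes described here are Dio1, Slc16a10, Thrb, Thra, Klf9 and Hr, which act in the activation of thyroid hormone and in the response to it. They were found by gene symbol in the table of liver mRNA counts, as 6 of 22429 genes, and all 6 were among the 12690 genes left by a filter on low counts. The 6 were chosen by their role and by their levels and differences between groups in these same libraries, so these levels and differences are given as a description, with no test. PolyA RNA from livers of male F1 Hybrid C57BL6J/FVBN mice was sequenced in 24 libraries, with 4 for each of the 6 groups studied. The wild-type mice (Ercc1 +/+) were fed freely to 16 weeks of age (the young wild type), fed freely to 104 weeks (the old wild type) or kept on 30% dietary restriction to 16 weeks (the restricted wild type). Ercc1 d/- mice, which the series calls progeroid and which are deficient in a DNA repair nuclease subunit, were fed freely to 7 weeks or to 16 weeks, or kept on 30% restriction to 16 weeks. Restriction began at 7 weeks of age and stood at 30% from 9 weeks. Wild-type mice ate 3.0 g of food a day when fed freely and 2.1 g when restricted, and mutants 2.3 g and 1.6 g. All mice were housed singly on a synthetic pellet diet, and none was fed before collection on the day of sacrifice. The labels number the libraries of a group without saying that each came from its own animal, so the errors here measure the spread between libraries.

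The thyroid releases mostly thyroxine (T4), a prohormone that becomes active when an iodine is removed from its outer ring to give T3. Carriers move both hormones across cell membranes, and in the nucleus T3 binds the receptors encoded by Thra and Thrb, which sit on DNA as partners of retinoid X receptors. Without hormone these receptors recruit corepressors, and with hormone coactivators. Liver is a major site of conversion of T4 by Dio1, its receptor is mainly of the Thrb type, and Dio1 is itself a classical T3-induced gene there. The libraries measure mRNA, and hormone levels and enzyme activity were not analysed here.

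Dio1 is a selenoprotein, made by reading a TGA triplet inside the coding sequence as selenocysteine, the residue at its active site. In the GENCODE M21 annotation of GRCm38, this codon was number 126 of 257 and lay at chr4:107297700-107297702 on the minus strand. The coding stretch around it is shown because selenoprotein genes are followed further down as a group, with the recoded triplet in capitals.
Dio1 selenocysteine codon: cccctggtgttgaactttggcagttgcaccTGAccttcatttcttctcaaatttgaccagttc
Of the 8 annotated Dio1 transcripts, 1 ended its coding sequence at this triplet, and the counts do not separate transcripts.

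Promoters are shown for Dio1, the gene with the widest range of levels, and for Klf9, whose level followed the same order as Dio1 over the 4 restricted wild-type libraries. Each sequence is the 250 bases before the start site in RefSeq (GRCm38.p6), at chr4:107307169-107307418 on the minus strand for Dio1 and chr19:23140976-23141225 on the plus strand for Klf9. No motif searched for was found in either, so neither carries capitals.
Dio1 promoter: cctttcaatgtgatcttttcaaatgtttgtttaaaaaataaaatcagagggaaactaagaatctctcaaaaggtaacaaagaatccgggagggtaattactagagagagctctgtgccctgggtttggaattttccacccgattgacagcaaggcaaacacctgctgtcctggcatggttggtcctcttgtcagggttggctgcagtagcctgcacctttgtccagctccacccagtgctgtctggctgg
Klf9 promoter: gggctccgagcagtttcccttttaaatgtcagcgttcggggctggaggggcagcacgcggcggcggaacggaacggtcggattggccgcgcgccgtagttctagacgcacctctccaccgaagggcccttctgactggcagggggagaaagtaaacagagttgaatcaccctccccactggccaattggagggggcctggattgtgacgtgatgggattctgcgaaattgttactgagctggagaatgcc
The search, on both strands, was for the nuclear receptor half-site AGGTCA, for the direct repeat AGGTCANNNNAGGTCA that contains it and binds thyroid hormone receptors, and for the E-box CACGTG bound by clock proteins. Among 32851 promoter windows of this length, AGGTCA was in 14%, the direct repeat in 5 windows (0.0152%) and CACGTG in 6.02%. Neither window holds these letters, which says nothing of sites outside it. The Slc16a10 window also held none of the 3 motifs, and of the pair of Thrb windows 1 held AGGTCA and the other CACGTG. Thra and Hr were not matched to a promoter entry. G and C made up 46.8% of the Dio1 window and 59.6% of the Klf9 window.

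Library totals ran from 13.3 to 20.6 M (mega) counts. Ercc1 ranged from 2.06 to 4.46 CPM over the 12 wild-type libraries and from 1.08 to 2.33 CPM over the 12 mutant libraries, so that the ranges overlapped at their ends. All 10 hepatocyte markers were detected in every group, at a summed level of 89770 to 174091 CPM. The 12 macrophage markers summed to 121 to 182 CPM in the young wild type, 97.2 to 171 CPM in the restricted wild type, 178 to 343 CPM in the old wild type and 185 to 401 CPM in the mutant libraries. In whole tissue, fewer cells of a type and less RNA per cell cannot be told apart, and this holds for every level that follows. Levels are counts per M of the scaled library total (CPM), with library values in the order of the labels' replicate numbers.

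Dio1 (ENSMUSG00000034785, chr4:107291465-107307169, minus strand), the enzyme that converts T4 to T3 in liver, had its highest level in the young wild type and its lowest in the restricted mutant. In the young wild type it stood at 86.1, 83.4, 96.6 and 102 CPM (mean 92.1 ± 8.95, SD, n = 4). In the restricted mutant it stood at 4.03, 2.04, 0.759 and 0.972 CPM (mean 1.95 ± 1.49), from 69, 38, 13 and 15 counts. The means differed 47.3-fold, the widest range of the 6 genes, and every library of the young wild type lay above every one of the restricted mutant. The restricted wild type lay between, at 7.31, 51.7, 26.5 and 20.8 CPM (mean 26.6 ± 18.6), with replicate 1 far below and replicate 2 far above the other two. In the freely fed mutant, Dio1 read 73.0, 74.1, 72.5 and 62.0 CPM at 7 weeks (mean 70.4 ± 5.66) and 44.9, 34.8, 39.6 and 52.9 CPM at 16 weeks (mean 43.0 ± 7.76). These groups did not overlap, and both lay below the young wild type. The old wild type spread from 50.1 to 108 CPM (mean 77.3 ± 28.4), a range that takes in the young wild type, with replicates 2 and 4 high and 1 and 3 low.

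From highest to lowest, Dio1 ran from the young to the old wild type, the 7-week mutant, the 16-week mutant, the restricted wild type and the restricted mutant. Of the neighbours in that order, the 7-week and 16-week mutants, and the restricted wild type and restricted mutant, did not overlap, while the other neighbours did. Over all 15 pairs of groups, 10 did not overlap. In the pairs compared further down, 12.4 to 22.5% of all genes tested had no overlap. No such share is given over all 15 pairs, which also limits the counts of pairs for the other members. On the log2 scale, restriction went with a difference of -1.80 ± 0.42 (SE) in the wild type and -4.45 ± 0.50 in the mutant. The difference between these values was -2.65 ± 0.62, and -3.27 without restricted mutant replicate 1, the library with the most Dio1 in its group. Without that library the difference to the freely fed mutant was -5.07, and that between the restricted groups was -4.37 in place of -3.75 ± 0.49. Per kb of annotated exon, Dio1 ran from 46.8 ± 4.54 CPM in the young wild type to 0.989 ± 0.759 CPM in the restricted mutant.

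**Figure D1:**
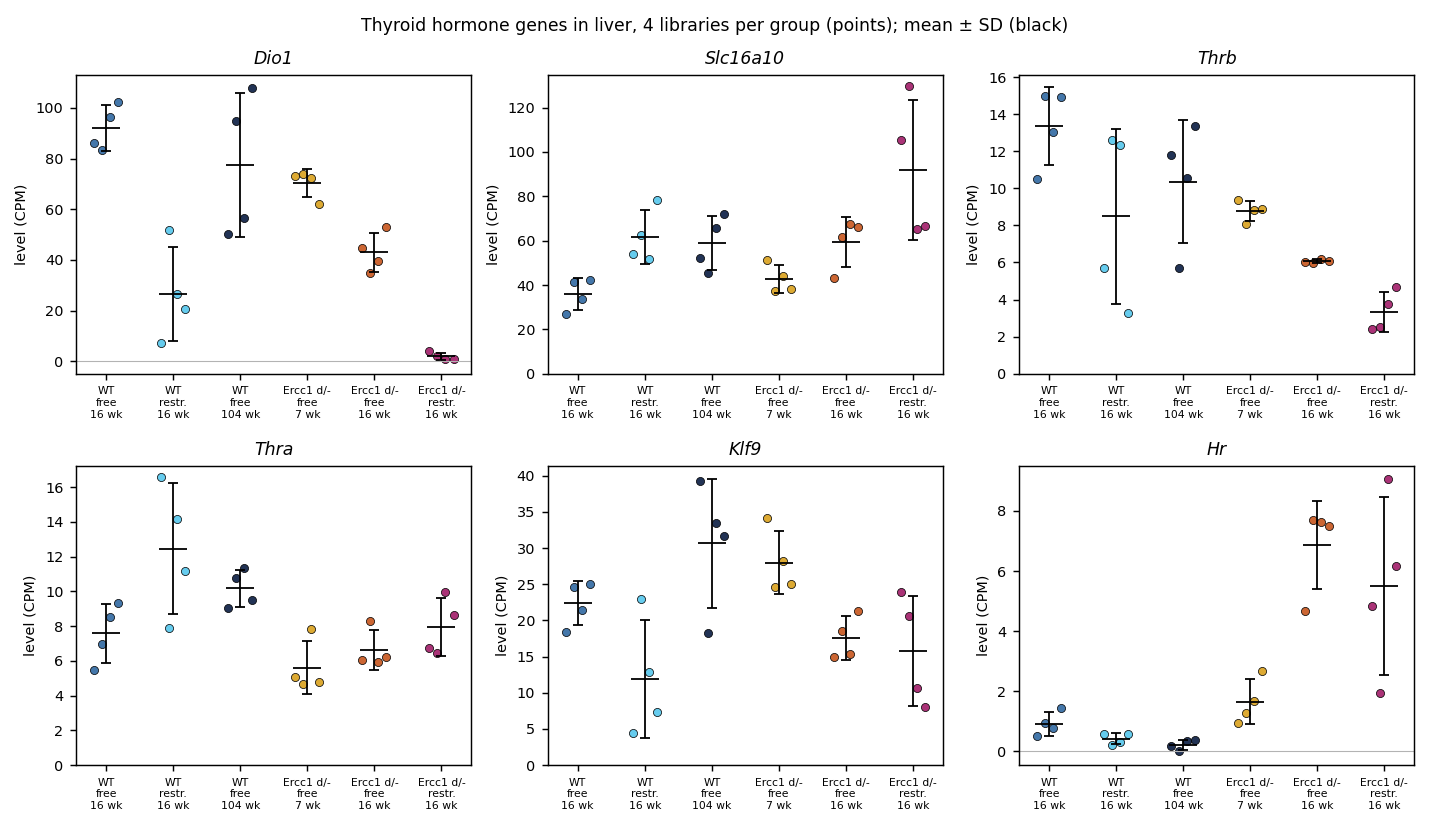
Level (CPM, linear axis) of the 6 genes in each of 24 libraries (points), by group, with the mean and SD over 4 libraries in black. Dio1 is lowest in the restricted mutant, at 0.759 to 4.03 CPM, and Hr is at 1.93 CPM or more in all 8 libraries of the mutant at 16 weeks.

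Slc16a10 (ENSMUSG00000019838, chr10:40033532-40142258, minus strand) encodes MCT10, a membrane carrier of T3, T4 and aromatic amino acids. Its order of groups was nearly opposite to that of Dio1, with the restricted mutant highest and the young wild type lowest. In the young wild type it read 27.1, 41.4, 33.5 and 42.3 CPM (mean 36.1 ± 7.15), and in the restricted wild type 54.0, 62.8, 51.6 and 78.4 CPM (mean 61.7 ± 12.1). These 2 groups did not overlap, and the log2 difference was 0.77 ± 0.21. The restricted mutant read 105, 130, 65.3 and 66.7 CPM (mean 91.8 ± 31.4), replicates 1 and 2 being high and 3 and 4 within the range of the freely fed mutant at 16 weeks (43.1 to 67.5 CPM). The old wild type, at 45.2 to 71.9 CPM, lay wholly above the young wild type (log2 difference 0.71 ± 0.21). The mean of the restricted mutant was 2.54 times that of the young wild type, and neighbouring groups in the order all overlapped. Of 15 pairs of groups, 6 did not overlap.

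Thrb (ENSMUSG00000021779, chr14:17660261-18038090, plus strand) encodes the receptor form that dominates in hepatocytes. It was highest in the young wild type, at 10.5, 15.0, 13.1 and 14.9 CPM (mean 13.4 ± 2.11). In the freely fed mutant it read 8.09 to 9.39 CPM at 7 weeks (mean 8.80 ± 0.537) and 5.98 to 6.20 CPM at 16 weeks (mean 6.08 ± 0.0915), so that the ages did not overlap. The restricted mutant was lowest, at 2.39, 2.52, 3.74 and 4.67 CPM (mean 3.33 ± 1.08), and lay wholly below the freely fed mutant of its age. The restricted wild type split into high replicates 2 and 3 (12.6 and 12.3 CPM) and low replicates 1 and 4 (5.69 and 3.29 CPM), and so overlapped each of the other groups. The old wild type read 11.8, 5.69, 10.6 and 13.4 CPM. Group means of Thrb spanned 4.02-fold, and 7 of 15 pairs of groups did not overlap.

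Thra (ENSMUSG00000058756, chr11:98740638-98769006, plus strand) encodes the other receptor, and also a splice form that does not bind hormone. Counts per gene do not separate the forms. Its group means spanned only 2.23-fold, from 5.60 ± 1.52 CPM in the 7-week mutant to 12.5 ± 3.78 CPM in the restricted wild type. The restricted wild type read 16.6, 7.88, 14.2 and 11.2 CPM and the young wild type 5.50, 6.99, 8.50 and 9.32 CPM, which overlapped. Of 15 pairs of groups, 3 did not overlap. The last exons of Thra share 263 bases with those of Nr1d1, a clock repressor on the opposite strand, and whether the counting used strand is not given in the sources used here. Reads from this stretch cannot be told apart without strand, and Nr1d1 itself was at 52.7 ± 7.63 CPM in the old wild type against 3.88 ± 1.87 CPM in the young wild type.

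Levels of the 2 receptors were set side by side per length of annotated exon, all exons of a gene together (7403 bases for Thrb and 4614 for Thra). The transcripts expressed may be shorter. Thra counts include the form that does not bind hormone and may include reads from Nr1d1. The share below is thus a rough scale and not that of hormone-binding receptor. In CPM per kb, Thrb stood at 1.81 ± 0.285 and Thra at 1.64 ± 0.366 in the young wild type, and at 0.45 ± 0.146 and 1.72 ± 0.363 in the restricted mutant. The share of Thrb in the sum of both, on this scale, was 52.6 ± 3.86% in the young wild type and 50.1 ± 6.01% in the 7-week mutant. It was 36.7 ± 3.89% in the 16-week mutant and 20.5 ± 3.22% in the restricted mutant, whose 4 libraries (18.2 to 25.2%) lay below all of the freely fed mutant (31.0 to 39.5% at 16 weeks). The restricted wild type ranged from 15.6 to 49.9% and the old wild type from 24.8 to 46.7%.

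**Figure D2:**
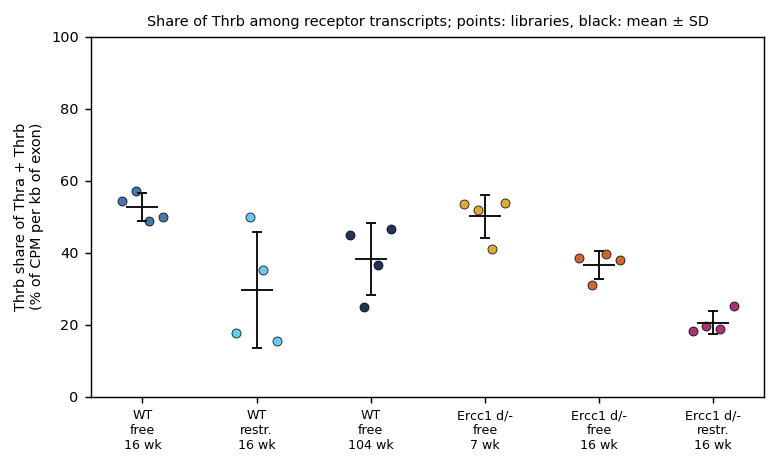
Share of Thrb in the summed level of Thra and Thrb (percent of CPM per kb of exon) in each library, by group, with mean and SD in black. Length is that of all annotated exons, and Thra counts include the form that does not bind hormone and may include reads from Nr1d1. The 16-week mutant libraries lie at 31.0 to 39.5% and the restricted mutant libraries at 18.2 to 25.2%, against 48.9 to 57.2% in the young wild type.

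Klf9 (ENSMUSG00000033863, chr19:23141226-23168134, plus strand) is a zinc finger transcription factor induced by T3, by glucocorticoids and by the clock. Its group means spanned 2.58-fold. The old wild type was highest, at 39.3, 18.3, 33.5 and 31.6 CPM (mean 30.7 ± 8.90), and the restricted wild type lowest, at 4.41, 23.0, 12.8 and 7.35 CPM (mean 11.9 ± 8.18). Replicate 2 of the restricted wild type alone reached the level of the young wild type (22.4 ± 3.08 CPM, 18.4 to 25.1 CPM), and 3 of its 4 libraries lay below all of that group. The freely fed mutant held 24.6 to 34.1 CPM at 7 weeks (mean 28.0 ± 4.40) and 15.0 to 21.4 CPM at 16 weeks (mean 17.6 ± 2.98), with no overlap. In the restricted mutant Klf9 read 23.9, 20.5, 10.7 and 8.04 CPM (mean 15.8 ± 7.64), libraries above and below those of the freely fed mutant, and the log2 difference between these groups was -0.15 ± 0.37 and 0.07 without restricted mutant replicate 4. Of 15 pairs of groups, 3 did not overlap.

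Hr (ENSMUSG00000022096, chr14:70552212-70573548, plus strand) encodes Hairless, a nuclear corepressor best known from skin and brain, where it is a direct T3 target. It was near the limit of detection in wild-type liver and was highest in the mutant at 16 weeks. The young wild type read 0.500, 0.931, 0.778 and 1.44 CPM (mean 0.912 ± 0.394), from 57 counts in all. The restricted wild type read 0.569, 0.215, 0.321 and 0.570 CPM, from 29 counts, and the old wild type 0.166, 0, 0.337 and 0.364 CPM, from 12 counts. For old wild-type replicate 2, which had no count, 3 counts would have been 0.237 CPM, a limit for counting error only. In the freely fed mutant Hr stood at 0.944, 1.27, 1.69 and 2.67 CPM at 7 weeks (mean 1.64 ± 0.748) and at 4.66, 7.69, 7.62 and 7.50 CPM at 16 weeks (mean 6.87 ± 1.48). The ages did not overlap, and the log2 difference between them was 2.06 ± 0.41. The restricted mutant, at 4.84, 1.93, 9.05 and 6.16 CPM (mean 5.49 ± 2.95), overlapped the freely fed mutant of both ages. Against wild type on the same diet, the log2 difference at 16 weeks was 2.92 ± 0.44 with free feeding and 3.65 ± 0.48 under restriction. Neighbours in the order of the 6 groups all overlapped, yet 10 of the 15 pairs did not, and the 16-week mutant mean was 31.7 times that of the old wild type.

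Between Klf9 and Hr the groups were ordered differently. Klf9 was higher in the 7-week than in the 16-week mutant, and Hr the other way round, in each case with no overlap. Klf9 was on average higher in the old than in the young wild type, with overlap (0.46 ± 0.36 on the log2 scale), and Hr lower with none (-1.97 ± 0.62).

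**Figure D3:**
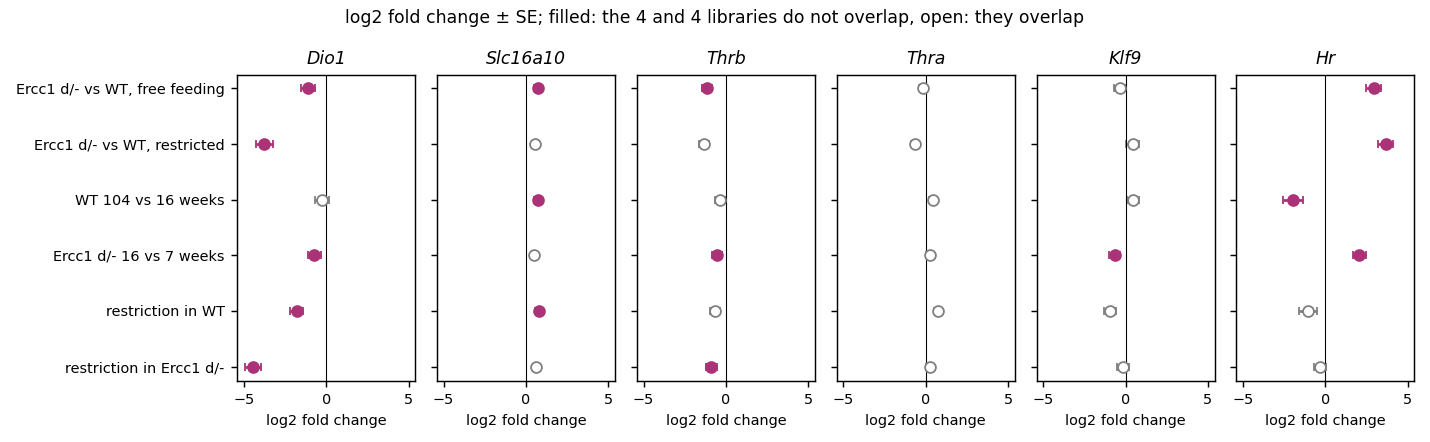
Log2 fold change (x axis) with its SE for each of the 6 genes in 6 comparisons of groups, with filled points where the 4 and 4 libraries do not overlap. Dio1 is at -4.45 for restriction in the mutant and Hr at 2.92 and 3.65 for mutant against wild type.

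Comparing freely fed mutant and wild-type liver at 16 weeks, Dio1 and Thrb were lower and Slc16a10 and Hr higher in the mutant with no overlap, while Thra and Klf9 overlapped. Thus 4 of the 6 had no overlap, where 22.5% of all genes tested had none. The log2 differences were -1.10 ± 0.41 for Dio1, -1.13 ± 0.30 for Thrb and 0.72 ± 0.21 for Slc16a10. Other genes of hormone handling and response, taken from lists of 121 tested genes, were called at an adjusted p under 0.05 in edgeR's quasi-likelihood test. In this comparison 12 of the 121 were called, 6 higher and 6 lower (9.92%, against 9.94% of all genes). The count was 31 with only these 8 libraries in the fit and 7 without young wild-type replicate 3. For such other fits, here and in the comparisons below, the share of all genes called is not given. Of 20 T3-induced liver genes, 5 were called, and the list's median log2 difference was -0.12 against 0.02 over all genes. Many genes of this list also respond to feeding or fasting, and food intake differed between groups. Its counts and medians, here and in the comparisons below, are therefore not a measure of the T3 response alone. Me1, the malic enzyme that supplies NADPH for fat synthesis, fell from 264 ± 87.1 to 87.3 ± 19.3 CPM (-1.60 ± 0.27 on the log2 scale, edgeR adjusted p = 0.000312). Fgf21, a fasting hormone, fell by 1.93 ± 0.45 on the log2 scale (edgeR adjusted p = 0.00631). The other 3 were higher: Bcl3, a coregulator of NF-κB (1.33 ± 0.37), Ucp2, a mitochondrial carrier (0.93 ± 0.20), and Abcg5, a sterol exporter (0.78 ± 0.20). Thrsp, a lipogenic protein used as a standard hepatic T3 marker, stood at 304 ± 99.8 CPM in the wild type and 190 ± 113 CPM in the mutant (edgeR adjusted p = 0.513).

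Of 14 carriers and binding proteins, Slco1c1, a T4 carrier, was higher in the freely fed mutant, from a level at the limit of detection (8 counts over the young wild type, and 1.95 ± 0.466 CPM in the mutant, edgeR adjusted p = 3.32e-05). Ttr, the plasma carrier transthyretin, was lower (-0.44 ± 0.14, edgeR adjusted p = 0.0395). Among 6 tested genes of deiodination and conjugation, Ugt1a9, a glucuronidating enzyme whose exons are shared with other Ugt1a genes and whose separate value is therefore uncertain, fell by 0.84 ± 0.16 (edgeR adjusted p = 0.000854). Klf10, from the family of Klf9, fell by 1.00 ± 0.22 (edgeR adjusted p = 0.00332), and Klf12 was also lower (-1.27 ± 0.36). Of 19 receptor partners and coregulators none was called by edgeR, with 5 at an unadjusted p under 0.05 and 2 called by DESeq2. The calls of Ttr, Bcl3, Abcg5, Klf12, Selenoh (higher) and Lcn2 (higher), but not those of Me1, Fgf21, Ugt1a9 and Klf10, ended when single libraries were left out. Of the macrophage markers, 8 of 12 were called higher in the mutant and none lower, and of the erythroid markers 4 of 5 were lower. Their part in these differences was not tested.

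Between the restricted groups, Dio1 was lower and Hr higher in the mutant with no overlap, and the other 4 genes overlapped. These 2 of 6 stand beside 15.8% of all genes without overlap. Thrb was -1.35 ± 0.32, Thra -0.66 ± 0.22, Slc16a10 0.57 ± 0.21 and Klf9 0.42 ± 0.37 on the log2 scale. Of the 121 listed genes 36 were called, 11 higher and 25 lower (29.8%, against 18.3% of all genes), and 16 with only these 8 libraries in the fit. T3-induced genes had 11 of 20 called, 4 higher and 7 lower, with a median of -0.47 against -0.03 over all genes. The calls of Gpd2, Acaca, G6pc and Apoa1 (lower) and Cpt1a (higher) ended when single libraries were left out. Those of Me1 and Mlxipl (lower) and Ucp2 (higher) held. The sterol exporter genes Abcg5 (2.22 ± 0.21, edgeR adjusted p = 1.05e-07) and Abcg8 (1.65 ± 0.24, edgeR adjusted p = 3.15e-05) rose in the mutant. Fgf21 was lower (-1.80 ± 0.46), and without restricted wild-type replicate 1 this became -1.01 and was not called (edgeR adjusted p = 0.0914).

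Among carriers and binding proteins, Slco1a4, a transporter of T4 and bile acids, was at 218 ± 26.3 CPM in the restricted mutant and 114 ± 23.2 CPM in the wild type on that diet, a rise of 0.93 ± 0.16 on the log2 scale (edgeR adjusted p = 0.000256). Crym, a cytosolic T3-binding protein, was lower, at 0.781 ± 0.292 against 2.34 ± 0.952 CPM (edgeR adjusted p = 0.00139). Slco1a1 (-0.79 ± 0.19), Slc10a1 (-0.48 ± 0.12) and Ttr (-0.51 ± 0.14) were also lower. Slco1a1 was not called with only these 8 libraries in the fit (edgeR adjusted p = 0.0967). Sult1b1, a sulfotransferase of iodothyronines, rose by 0.98 ± 0.16 (edgeR adjusted p = 0.000152), and Ncor1, the main corepressor of the receptors, fell by 0.62 ± 0.13 (edgeR adjusted p = 0.00147, and 0.0519 with only these 8 libraries). Among other members of the Klf family, Klf7, Klf10 (-1.44 ± 0.21, edgeR adjusted p = 4.2e-05) and Klf12 (-1.46 ± 0.37) were lower. Of the selenoprotein genes, Selenoh was higher by 1.65 ± 0.22 (edgeR adjusted p = 1.03e-05), Gpx4 was higher and Txnrd2 and Selenok lower. Single left-out libraries ended the calls of Gpx4, Selenok, Klf7, Kat2b, Pstk, Lcn2, Ciart, Nfil3, Per2, Cry1 and Hlf. Txnrd2 was not called with only these 8 libraries (edgeR adjusted p = 0.153). All 12 macrophage markers and 3 of 4 tested for neutrophils were called higher in the mutant, and of 10 hepatocyte markers 3 were lower and 1 higher. Their part was not tested.

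With age in the wild type, Slc16a10 was higher and Hr lower with no overlap, and the other 4 overlapped (2 of 6 without overlap, against 16.9% of all genes). The young wild type is the reference here as in the comparison of freely fed genotypes and that of diets, so these share its 4 libraries. Dio1 differed by -0.25 ± 0.40, Thrb by -0.36 ± 0.30, Thra by 0.43 ± 0.22 and Klf9 by 0.46 ± 0.36 on the log2 scale. Of the 121 listed genes 24 were called, 13 higher and 11 lower (19.8%, against 10.1% of all genes), and 14 when young wild-type replicate 4 was left out. T3-induced genes had 4 called higher (Bcl3, Apoa1, Abcg5 and Abcg8) and 3 lower (Fgf21, Cpt1a and Pdk4), with a median of 0.29 against 0.02. Bcl3 rose by 2.62 ± 0.38 (edgeR adjusted p = 0.000109) and Fgf21 fell by 2.83 ± 0.49 (edgeR adjusted p = 0.000516). Rxrg, a retinoid X receptor form, fell by 1.47 ± 0.36 (edgeR adjusted p = 0.00916), while Rxra, the main partner of the receptors in liver, stood at 118 ± 14.0 and 135 ± 34.3 CPM in the young and old wild type (edgeR adjusted p = 0.577).

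Ugt1a9 fell by 0.93 ± 0.16 with age (edgeR adjusted p = 0.000382). Selenoproteins moved in both directions: Selenop, the plasma selenium carrier (-0.44 ± 0.09, edgeR adjusted p = 0.00302), and Gpx4, a lipid peroxidase (-0.57 ± 0.12), fell, and Selenok, an endoplasmic reticulum protein (0.71 ± 0.15), rose. Sars, which charges the selenocysteine tRNA with serine, rose by 0.68 ± 0.12 (edgeR adjusted p = 0.000398). Clock genes were called in both directions: Nr1d1 rose by 3.75 ± 0.40 (edgeR adjusted p = 1.85e-06) and Dbp, a clock output factor, by 3.21 ± 0.39, and Arntl, their activator, fell by 2.82 ± 0.28 (edgeR adjusted p = 2.43e-07). None of the calls given with a value here ended when a single library was left out, whereas those of Apoa1, Abcg5, Abcg8, Cpt1a, Nrip1, Pdk4 and Klf10 did. Markers of some other cells were also higher in the old wild type, with 5 of 12 for macrophages, 3 of 4 tested for neutrophils and 2 of 2 tested for lymphoid cells. Of 10 hepatocyte markers 2 were higher, while 2 of 10 endothelial and 1 of 10 stellate cell markers were lower. Their part was not tested.

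Between 7 and 16 weeks in the freely fed mutant, Hr was higher and Dio1, Thrb and Klf9 lower with no overlap, while Thra and Slc16a10 overlapped (4 of 6 without overlap, against 12.4% of all genes). On the log2 scale Dio1 was -0.71 ± 0.40, Thrb -0.53 ± 0.30, Klf9 -0.67 ± 0.36 and Slc16a10 0.48 ± 0.21. Of the 121 listed genes edgeR called none, against 0.686% of all genes, with 18 at an unadjusted p under 0.05. DESeq2 called 1, Lcn2, and edgeR with only these 8 libraries called 14. Thrsp stood at 540 ± 77.2 CPM at 7 weeks and 190 ± 113 CPM at 16 weeks (edgeR adjusted p = 0.324). The median log2 difference of the T3-induced genes was -0.15 against 0.004 over all genes.

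Restriction in the wild type went with lower Dio1 and higher Slc16a10 with no overlap, the other 4 genes overlapping (2 of 6 without overlap, against 17.2% of all genes). Thrb was -0.66 ± 0.30, Thra 0.72 ± 0.22, Klf9 -0.92 ± 0.37 and Hr -1.05 ± 0.53 on the log2 scale. Of the 121 listed genes 31 were called, 14 higher and 17 lower (25.6%, against 13.6% of all genes), and 18 without restricted wild-type replicate 4. Of 14 carriers and binding proteins 7 were called, 4 higher and 3 lower. Slco1a1, an organic anion carrier, fell from 541 ± 30.9 to 199 ± 78.9 CPM (-1.45 ± 0.19 on the log2 scale, edgeR adjusted p = 1.67e-05), and Slco1b2 also fell (-0.93 ± 0.19). Slco1a4 rose (0.92 ± 0.16), as did Slc3a2, Alb and Crym, whose calls each ended under 3 or more of 8 left-out libraries. Of 5 erythroid markers 3 were called lower under restriction, and of 10 stellate cell markers 2 were lower and 1 higher. Their part was not tested.

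Conjugating enzymes changed in both directions under restriction in the wild type: Ugt1a1 rose by 0.99 ± 0.15 (edgeR adjusted p = 6.01e-05), Sult1a1 and Sult1d1 rose, and Sult1b1 fell by 1.12 ± 0.16 (edgeR adjusted p = 6.33e-05). Ugt1a1 shares exons with Ugt1a9, so its separate value is also uncertain, here and under restriction in the mutant. All 5 selenoproteins called were lower (Selenoh, Gpx1, Msrb1, Selenof and Selenoo), with Selenoh at -1.42 ± 0.22 and Gpx1, the abundant glutathione peroxidase, at -0.58 ± 0.13 (edgeR adjusted p = 0.00474). Of the 8 genes of selenocysteine synthesis and insertion edgeR called none, with 0 at an unadjusted p under 0.05 and 0 called by DESeq2. T3-induced genes had 5 called: Pck1, Cpt1a, Abcg5 and Abcg8 were lower and Bcl3 higher. The list's median log2 difference was 0.17 against 0.04 over all genes. Single left-out libraries ended the calls of Sult1a1, Sult1d1, Msrb1, Selenoo, Pck1 and Abcg8. With only the 8 libraries compared in the fit, Sult1d1, Selenoo, Pck1 (edgeR adjusted p = 0.17), Abcg8, Cpt1a (0.0674), Abcg5 (0.062) and Selenof (0.0751) were not called. Thrsp stood at 98.4 ± 74.0 CPM under restriction against 304 ± 99.8 CPM (edgeR adjusted p = 0.0663) and Me1 at 160 ± 14.6 against 264 ± 87.1 CPM (edgeR adjusted p = 0.0711). Fasn and Pdk4, from the same list, were higher on average under restriction, also without a call. Fasn stood at 1439 ± 816 against 444 ± 157 CPM (edgeR adjusted p = 0.0618). Pdk4 stood at 8.94 ± 8.45 against 3.03 ± 0.154 CPM (edgeR adjusted p = 0.0570). Of the clock genes 9 of 16 were called, among them Dbp, lower by 2.10 ± 0.41 on the log2 scale (edgeR adjusted p = 0.00175). The calls of Npas2, Nr1d1, Nr1d2, Per2, Per3 and Cry1 ended under left-out libraries. Those of Dbp, Arntl (higher) and Bhlhe40 (higher) held. Of 10 glucocorticoid-induced genes edgeR called none, with 0 at an unadjusted p under 0.05 and 0 called by DESeq2.

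Restriction in the mutant went with lower Dio1 and Thrb with no overlap, and Thra, Slc16a10, Klf9 and Hr overlapped (2 of 6 without overlap, against 17.3% of all genes). Thrb differed by -0.87 ± 0.32, Slc16a10 by 0.62 ± 0.21, Thra by 0.26 ± 0.22 and Hr by -0.32 ± 0.38 on the log2 scale. Of the 121 listed genes 19 were called, 6 higher and 13 lower (15.7%, against 11.2% of all genes), and 12 when replicate 4 of the freely fed mutant was left out. Again 7 of 14 carriers and binding proteins were called, 1 higher and 6 lower. Slco1a1 fell from 537 ± 36.3 to 115 ± 22.3 CPM (-2.22 ± 0.20, edgeR adjusted p = 2.01e-08). Slco1a4 rose from 63.2 ± 7.01 to 218 ± 26.3 CPM (1.79 ± 0.17, edgeR adjusted p = 6.57e-08). Serpina7, the thyroxine-binding globulin of plasma, was lower (-1.37 ± 0.38, edgeR adjusted p = 0.0214), a call that ended without replicate 4 of the freely fed or replicate 1 of the restricted mutant. Slco1b2, Slco1c1 and Ttr were lower too.

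Sult1d1 (0.94 ± 0.20, edgeR adjusted p = 0.0023), Sult1a1 (0.74 ± 0.18) and Ugt1a1 (0.49 ± 0.14) were higher in the restricted than in the freely fed mutant. The selenoproteins Selenof (-0.48 ± 0.09, edgeR adjusted p = 0.000435) and Msrb1 (-0.71 ± 0.15) were lower, and both were also called lower in the wild type. Klf11 fell by 1.52 ± 0.37 (edgeR adjusted p = 0.0079) and Klf3 was lower (-0.90 ± 0.25). T3-induced genes had Apoa1, the main HDL protein (-0.76 ± 0.19), and Pck1 called lower and Abcg5 higher. The list's median log2 difference was -0.26 against 0.003 over all genes. Thrsp stood at 129 ± 105 and 190 ± 113 CPM in the restricted and freely fed mutant (edgeR adjusted p = 0.597). The calls of Ttr, Ugt1a1, Pck1, Abcg5, Npas2, Nr1d1 and Klf3 ended when single libraries were left out. Of 10 hepatocyte markers 3 were called lower and 1 higher in the restricted mutant, and of 10 endothelial markers 2 were higher. Of 12 macrophage markers 1 was higher, and of 5 erythroid markers 1 was lower. Their part was not tested.

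**Figure D4:**
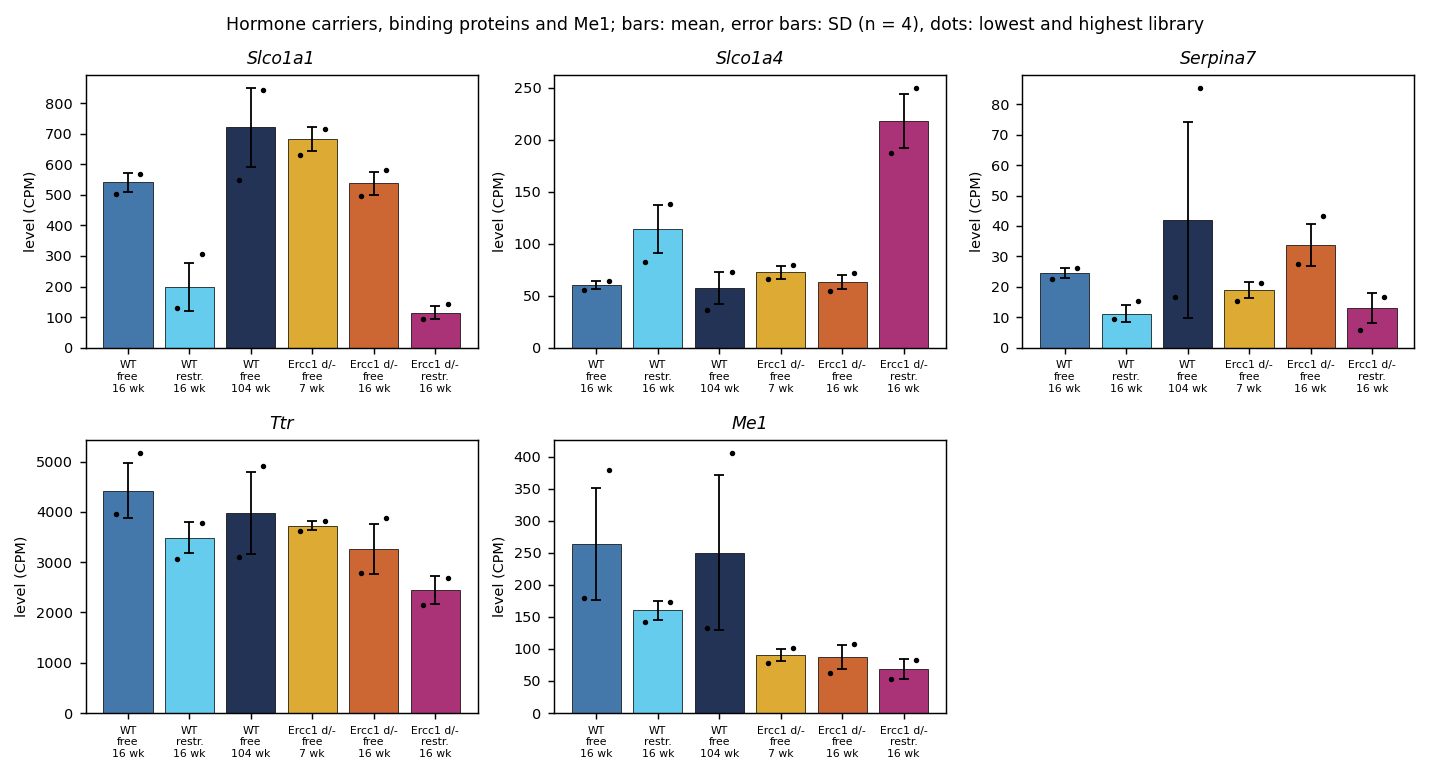
Mean level (CPM, bars from 0) of the carriers Slco1a1 and Slco1a4, the plasma binding proteins Serpina7 and Ttr, and Me1, by group, with the SD over 4 libraries and the lowest and highest library as dots. Under restriction Slco1a1 is lower and Slco1a4 is higher in both genotypes.

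Whether the difference with restriction depended on genotype was tested for the listed genes with an interaction term. Of 121 genes 3 were called (2.48%, against 1.5% of all genes), all with a higher value in the mutant. Sult1b1 differed by 1.22 ± 0.23 on the log2 scale (edgeR adjusted p = 0.00486), standing at 24.1 ± 3.21 and 11.2 ± 3.41 CPM in the freely fed and restricted wild type and at 20.5 ± 2.88 and 22.1 ± 1.86 CPM in the mutant. Abcg5 differed by 1.44 ± 0.28 (edgeR adjusted p = 0.00675) and Abcg8 by 1.41 ± 0.33 (edgeR adjusted p = 0.0291, a call that ended under 7 of 16 left-out libraries). For Slco1a4 the term was 0.87 ± 0.23 (edgeR adjusted p = 0.0571) and for Slco1a1 -0.78 ± 0.26 (edgeR adjusted p = 0.16). For the members, the same term was 0.77 ± 0.52 for Klf9, 0.73 ± 0.65 for Hr, -0.47 ± 0.31 for Thra, -0.21 ± 0.43 for Thrb and -0.15 ± 0.30 for Slc16a10, beside the -2.65 of Dio1.

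Deiodination in these livers rests in the counts on Dio1 and traces of other forms. Dio2, the activating deiodinase of brain and brown fat, had no count in any of the 24 libraries, which allows a level of up to 0.0078 CPM (3 counts over all libraries, a limit for counting error only). Dio3, which inactivates T4 and T3, had 2 to 17 counts per group. The highest group mean of Dio3 was 0.243 CPM, in the restricted mutant. Both fell below the filter on low counts.

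The 4 restricted libraries of each genotype differed widely among themselves, an ordering noticed after the values were seen. In the restricted mutant, replicates 1 and 2 had more Dio1, Slc16a10 and Klf9 than replicates 3 and 4, and less Thra, Thrb and Hr. Some other genes also separated replicates 1 and 2 from 3 and 4. Fkbp5, a glucocorticoid-induced chaperone, read 168, 192, 71.8 and 85.9 CPM, and Pck1, a gluconeogenic enzyme, read 505, 666, 274 and 289 CPM. Per2, a clock gene, was lower in replicates 1 and 2 (47.9 and 53.5 CPM) than in 3 and 4 (82.9 and 88.2 CPM). The clock genes Nr1d1 (3.15, 1.82, 1.05 and 1.04 CPM) and Ciart (32.2, 11.3, 9.98 and 7.84 CPM) were higher in replicates 1 and 2. The clock genes Arntl and Dbp did not separate these pairs. Arntl in replicate 3 lay between replicates 1 and 2 (16.2 and 22.8 CPM), and Dbp read 9.46, 3.38, 2.92 and 4.02 CPM. The totals were 16.8, 17.0, 15.0 and 13.3 M counts. The hepatocyte marker sum was 124019, 130461, 109196 and 99630 CPM. In the restricted wild type, Dio1 and Klf9 both ran from replicate 2 through 3 and 4 to 1. Pck1 followed with 1136, 519, 480 and 56.2 CPM in that order of libraries, and Nr1d1 with 2.72, 1.09, 0.950 and 0.332 CPM. Dbp and Ciart, both higher in replicate 1 than in 3 and 4, did not. Fkbp5 did not either, at 154, 53.7, 183 and 94.3 CPM. The part of these genes, of depth or of collection in the spread of the members was not tested.

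**Figure D5:**
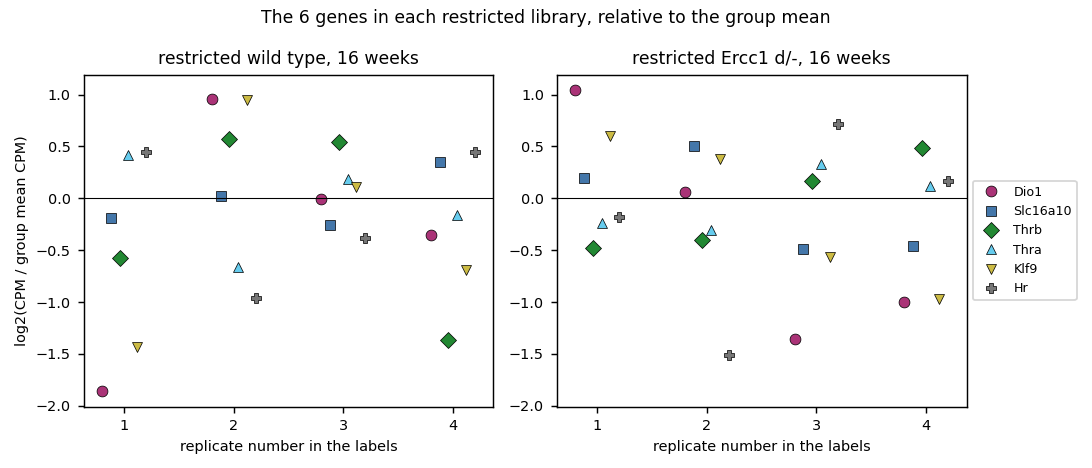
Level of each of the 6 genes in each restricted library relative to its group mean, as log2 of the ratio of CPM (y axis), by replicate number (x axis, which has no order) and genotype. In the mutant, Dio1, Slc16a10 and Klf9 are above the points of replicates 3 and 4 in replicates 1 and 2; in the wild type Dio1 and Klf9 share their order.

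The genes most like each member were sought among 11462 others with a mean of at least 1 CPM, by the root mean square difference between centred log2 group means over the 6 groups (0 for the same profile). For Dio1 they were Car3, a carbonic anhydrase (0.67), Nat8f7 (0.76) and Nat8f3 (0.77), where the median over all genes was 1.98. Car3 ran from 1350 ± 404 CPM in the young wild type to 74.1 ± 7.83 CPM in the restricted mutant. Nat8f7 and Nat8f3, which belong to 1 gene family, had close counts (654 and 622 in the young wild type, 76 each in the restricted wild type), and whether their reads are separate is uncertain. For Slc16a10 the closest were Nfkbiz and Niban3 (0.06 each) and Ctla2a (0.10, median 0.48). For Thrb they were Nr3c2, the mineralocorticoid receptor (0.12), Lrit1 and Fggy (0.14 each, median 0.67), and for Thra Zfp821 (0.05), Zbtb12 (0.07) and Srebf1 (0.10, median 0.43). Klf9 was closest to Zbtb20 (0.10), Gbp2b (0.11) and Lcp1 (0.12, median 0.60). Hr was closest to Fam83f and Gal3st1 (0.46 each) and Myo15b (0.64, median 1.64). Among themselves, the members nearest to each other were Thra and Slc16a10 (0.45) and Thrb and Klf9 (0.57), while Dio1 and Hr lay farthest apart (3.09). Thra and Slc16a10 were on the same side of their mean in 4 of 6 groups, and Thrb and Klf9 in 6 of 6. The 0.45 is about the median over all genes for its pair (0.43 and 0.48). The 0.57 is little below the medians for its own (0.67 and 0.60).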

How the data were processed

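The authors deposited 1 table of raw read counts per gene for 24 liver libraries, with no normalization, per the file headers. Per the submitters' processing notes, which give no roles or order, the tools include STAR 2.7.0f, featureCounts, Subread 1.6.4 and Trimmomatic 0.39, and the genome build is GRCm38.p6. Not given in the sources used here are the annotation release, the strand setting and how multi-mapped reads were handled. Every one of the 22429 genes was matched by identifier to GENCODE M21, which gave positions and exon lengths.

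The members and all gene lists were chosen with earlier results of these data known. The 6 members were therefore not tested, and the lists are described by counts and medians beside those of all genes. The counts went through edgeR 4.0.16 (R 4.3.3), with low genes removed by filterByExpr, TMM scaling, and 1 fit of a mean per group over the 24 libraries, which had a common dispersion of 0.0493 and left 18 residual degrees of freedom. Contrasts were tested with the robust quasi-likelihood F test, and Benjamini-Hochberg adjusted p-values cover all 12690 genes tested. A gene is called at an adjusted p under 0.05, and an overlap means that the ranges of the 4 and 4 libraries overlap. CPM use scaled totals. Likeness was computed from log2 CPM with a prior count of 2.

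The rule for naming genes took the 6 members, up to 3 called genes per list and comparison with the largest log2 fold change and a mean of at least 1 CPM, Thrsp, Dio2, Dio3, Ttr, Rxra, Nr1d1, Ercc1 and a gene that is not reported here, and the 3 genes most like each member. Other listed genes named were chosen after their values were seen. The lists hold carriers and binding proteins, deiodination and conjugation, receptor partners and coregulators, T3-induced liver genes, selenocysteine synthesis, selenoproteins, glucocorticoid-induced genes, clock genes, other Klf genes, and markers of 8 cell types. Totals of 13.3 to 20.6 M counts limit precision for Hr, Slco1c1 and Dio3. Replicates were distinct libraries: over 36 pairs within groups the chi-square of their counts was at least 8.32 per degree of freedom. Alternatives were DESeq2 1.42.0, RLE scaling, no filter, only the groups compared, the replicate number as a block, library totals alone and leaving out each library. The fits were tested on simulated counts.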

Additional observations from a re-analysis of the deposited data

Results flagged for a closer look

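In 4 of 78 sets of 4 libraries (a gene in a group), 1 library stood apart from the other 3 by the gap rule for small samples, where chance flags about 1 in 20 sets. These were Dio1 in replicate 4 of the 7-week mutant (62.0 CPM, the other 3 at 72.5 to 74.1 CPM), Thra in replicate 3 of the 7-week mutant (7.86 CPM, the others at 4.65 to 5.09 CPM), Thra in replicate 2 of the freely fed 16-week mutant (8.32 CPM, the others at 5.91 to 6.23 CPM) and Hr in replicate 1 of the same group (4.66 CPM, the others at 7.50 to 7.69 CPM).

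The difference with restriction depended on genotype, by edgeR's interaction term, for 3 listed genes. The mutant minus wild-type values on the log2 scale were 1.22 for Sult1b1 (edgeR adjusted p = 0.00486), 1.44 for Abcg5 (edgeR adjusted p = 0.00675) and 1.41 for Abcg8 (edgeR adjusted p = 0.0291).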

How the results depend on the processing

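Over 634 values of the members under other settings, all moved by less than 1 SD between libraries, pooled over the groups. For left-out libraries this was nearly fixed in advance, since leaving out 1 of 4 moves a group mean by less than the group's SD. It is therefore no sign of stability. Without restricted mutant replicate 1, Dio1 moved by up to 0.62 on the log2 scale. The sign changed in 3: Klf9 for restriction in the mutant (0.07 without restricted mutant replicate 4), and the Thrb interaction (0.05 and 0.03 without restricted wild-type replicates 2 and 3). Apart from left-out libraries, no setting moved a member by more than 0.14 on the log2 scale.

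Counts of called genes among the 121 listed depended more on the setting. The share of all genes called under each setting is not given beside them. With only the groups compared in the fit, the count went from 12 to 31 for mutant against wild type on free feeding, from 36 to 16 under restriction and from 0 to 14 between 7 and 16 weeks. DESeq2 called 1 gene in place of 0 in the last of these, and 7 in place of 3 for the interaction. Leaving out each library in turn gave 7 to 10 for mutant against wild type on free feeding (the lowest without young wild-type replicate 3), 25 to 33 under restriction, 14 to 24 for age in the wild type (the lowest without young wild-type replicate 4), 0 for 7 to 16 weeks, 18 to 37 for restriction in the wild type (18 without restricted wild-type replicate 4 and 20 without young wild-type replicate 3), 12 to 18 for restriction in the mutant (the lowest without 16-week free-fed mutant replicate 4) and 2 to 4 for the interaction. Scaling by RLE and omitting the filter kept every count within 1.5 times. Of 78 calls that the naming rule took, 47 held under every left-out library and 31 did not; 22 ended with only the groups compared, 9 without the filter, 1 with RLE and 0 with DESeq2. The cause of these changes was not tested.

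Same-numbered libraries correlated in their deviations from the group means at -0.222 to 0.316, and in no comparison were all 4 pairs above 0.1. For restriction in the wild type, 2 of 4 pairs were above 0.1. There, 3 of 4 restricted libraries correlated best with the freely fed library of their own number. These values do not settle whether replicate numbers pair the samples. With the replicate block, counts were 13, 36, 23, 0, 33 and 19 in the order of comparisons in the report and 4 for the interaction. Calls that ended included Selenoh (free feeding), Kat2b and G6pc (between the restricted groups), Nr1d2 (age in the wild type) and Crym (restriction in the wild type). Depth limits Hr and Dio1 where counts are few, as in the restricted mutant for Dio1 (135 counts in all).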
